A study of Homo sapiens with 4 samples.

Results

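The genes described here encode the machinery that copies DNA and the enzymes that supply its building blocks. They are 52 genes listed by name in 8 roles: origin licensing, helicase activation, polymerases and primase, the clamp and its loader, single-strand binding and lagging-strand maturation, nucleotide supply, fork protection, and chromatin assembly with maintenance methylation. Annotated transcripts were found for 51 of the 52, among 50849 genes with a symbol, of which 19322 were nuclear protein-coding genes; UHRF1 was not matched. RNA came from WI-38, an established human fetal lung fibroblast line whose cells divide a limited number of times. The 4 groups were mitoplasts of senescent cells at population doubling level 60, mitoplasts of young cells at level 21, whole senescent cells at level 60 and whole young cells at level 21. A mitoplast is a mitochondrion without its outer membrane. The labels' protocols say that the cells were opened with CHAPS, and that the swollen mitochondria were treated with RNase A to digest RNA from the nucleus and cytosol. Each group held 1 library of 1 cell line, so every difference below is between 2 libraries, has no replicate check and carries no p-value.

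Before DNA is copied, the origin recognition complex, CDC6 and CDT1 load the ring-shaped MCM helicase onto chromatin. In S phase MCM10, CDC45 and the GINS complex turn it into a moving helicase, DNA polymerase alpha with primase starts each strand, and polymerases delta and epsilon extend it, held to the template by the PCNA clamp that the RFC complex loads. Ribonucleotide reductase, thymidylate synthase and thymidine kinase feed the pool of deoxynucleotides. Many of these genes are known targets of E2F transcription factors, which act at entry into S phase, and cells that have left the cycle usually carry little of their mRNA.

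The values are FPKM, fragments scaled to transcript length and to the mapped fragments of the library, and a gene's level is the sum over its annotated transcripts in a library. A ratio is log2 of (FPKM + 1) in one library over (FPKM + 1) in the other, which understates the change of low genes. A gene counts as measured in a comparison at 1 FPKM or more in at least 1 of the 2 libraries, and as lower or higher at a log2 ratio of 1 or more in size. An exact 0 can be a failed or reassigned estimate, so such a gene is described as listed at 0 and is given no fold. Listed at 0 means that all of the gene's transcripts with a value in that library were at 0. Of 120 member transcripts above 0 in some library, 3 have no value in another, and they belong to GINS1, MCM3 and TK1.

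The libraries differed in ways that touch all genes. Assembled transcripts without a name held 97.5% of the summed FPKM in the senescent mitoplast, 92.8% in the young mitoplast, 77.0% in senescent whole cells and 54.2% in young whole cells, and read depth is unknown. The young whole-cell library had 6763 nuclear protein-coding genes with at least 5 FPKM, and the share of them listed at 0 was 29.5% for the senescent mitoplast, 10.1% for the young mitoplast and 4.82% for senescent whole cells. All 10 fibroblast markers reached 1 FPKM in both whole-cell libraries, against 8 in the senescent and 9 in the young mitoplast. Summed epithelial markers stayed between 22.7 and 26.6 FPKM, endothelial markers between 8.23 and 32.5 FPKM, and blood and immune markers between 0 and 13.1 FPKM. Of the endothelial markers, TEK was at 24.8 FPKM in senescent and 28.8 FPKM in young whole cells, and VWF at 23.3 FPKM in the senescent mitoplast. CDH5 was at 0 in every library, and PECAM1 was not matched. MKI67, a marker of cycling cells, had 0.264 FPKM in senescent whole cells and 12.1 FPKM in young whole cells. The senescence-linked inhibitors CDKN1A and CDKN2A were at 152 and 15.6 FPKM in senescent whole cells, against 93.7 and 0 FPKM in young ones, and LMNB1, usually low in senescence, was at 0.401 FPKM against 32.7 FPKM. In mitoplasts these 3 ran the other way: CDKN1A had 35.9 FPKM in the senescent and 94.8 FPKM in the young library, CDKN2A 33.5 and 65.5 FPKM, and LMNB1 7.73 and 0 FPKM. MKI67 kept its direction, at 0.234 FPKM in the senescent and 4.78 FPKM in the young mitoplast. So did TOP2A, also made in cycling cells, at 11.7 FPKM in the senescent and 38.4 FPKM in the young mitoplast. In whole cells TOP2A was listed at 0 in the senescent library and at 43.2 FPKM in the young one. Coding transcripts of LMNB1 and TOP2A were at 0 in every library. The mitochondrial gene MT-CO1 was at 34115 FPKM in the young mitoplast and 8540 FPKM in young whole cells, but was listed at 0 in both senescent libraries, so it checks the fraction only in young cells, and MT-ND4 had the same pattern. MT-CYB was above 0 in every library, at 29903 FPKM in the senescent mitoplast and 14663 FPKM in senescent whole cells, while MT-ND1 ran against the fraction label there, listed at 0 in the senescent mitoplast and at 13185 FPKM in senescent whole cells. The part of these values in the results below was not tested.

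Replication genes were mostly lower in senescent whole cells. Of 39 measured members, 29 were lower and 0 were higher than in young whole cells, with a median log2 ratio of -1.67; among all 10544 measured nuclear protein-coding genes 22.8% were lower and 15.3% higher, with a median of -0.22. Of the 29, 9 were listed at 0 in senescent whole cells. Among the 30 members above 0 in both libraries, 20 were lower and 0 higher, with a median log2 ratio of -1.35, against 18.9% lower and 10.9% higher of 9296 such genes overall. Summed over members, annotated FPKM came to 225 in senescent whole cells and 739 in young whole cells, a 3.28-fold lower sum. PRIM2 alone supplied much of both sums, and without it they were 141 and 523 FPKM, a 3.70-fold lower sum in senescent cells. In bulk RNA, fewer cells in S phase and less replication mRNA per cell cannot be told apart.

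**Figure D1:**
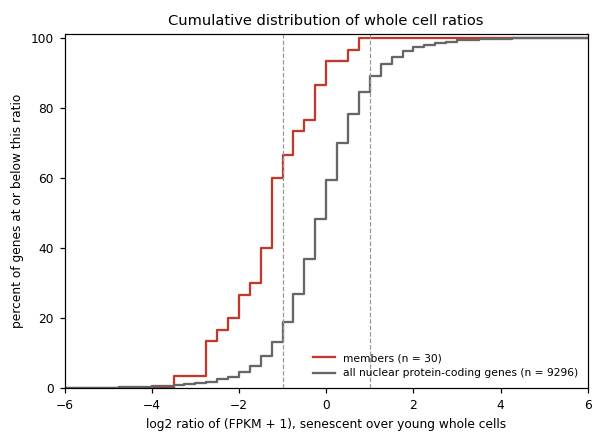
Cumulative percent of genes (y axis) at or below each log2 ratio of FPKM + 1, senescent over young whole cells (x axis), for the 30 members (red) and the 9296 nuclear protein-coding genes (grey) that were above 0 in both libraries; dashed lines mark ratios of -1 and 1. The red curve lies left of the grey one, with a median of -1.35 against -0.21.

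Rescaling moved the background and left most members lower. Rescaled to an equal sum over annotated genes, the median of all genes became 0.07 and 1880 genes were lower and 2120 higher, against 2406 lower and 1611 higher as deposited. Under that rescaling and under a median-of-ratios rescaling, 27 members were lower. CDC6 lost its call under both, PCNA under the equal sum (log2 ratio -0.99) and GINS3 under the median of ratios (-0.82). Of the 30 members above 0 in both libraries, ORC2 and ORC3 were the 2 that changed sign.

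The distribution of levels changed as well as the sum. Members at 5 FPKM or more numbered 10 in senescent whole cells and 31 in young whole cells, against 6374 and 6763 of all nuclear protein-coding genes. Of those 31, picked by their young whole-cell level like the 6763 genes, the senescent mitoplast listed 17 at 0 (29.5% over all genes), the young mitoplast 7 (10.1%) and senescent whole cells 7 (4.82%). The median level of members above 0 was 2.98 FPKM in senescent whole cells and 8.92 FPKM in young whole cells.

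**Figure D2:**
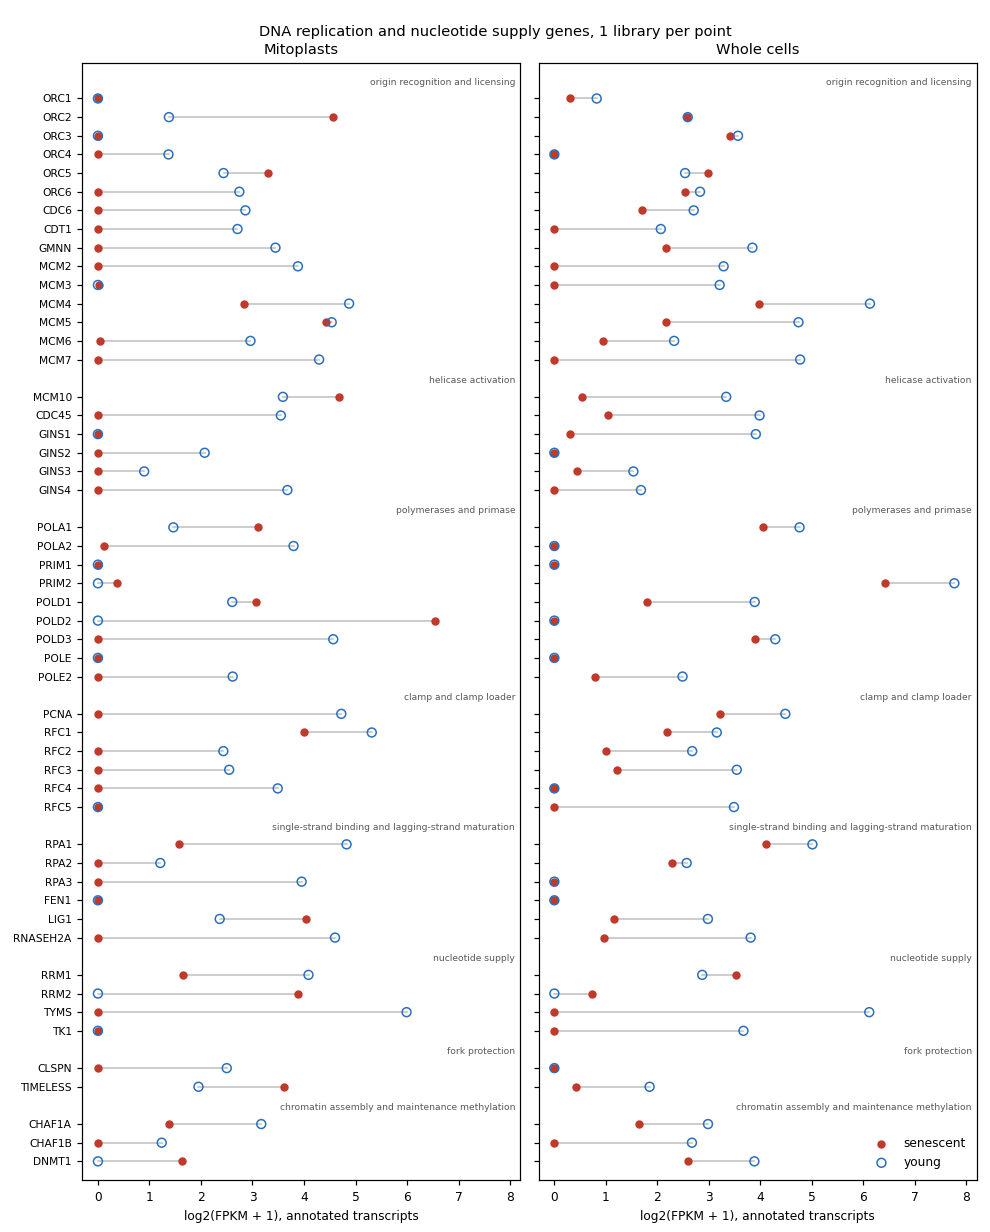
Level of each of the 51 members as log2(FPKM + 1) (x axis), grouped by role, in mitoplasts (left) and whole cells (right); filled red points are the senescent library and open blue points the young library, 1 library per point. In whole cells the red point lies left of the blue one for most members, while in mitoplasts many red points stand at 0 and POLD2, ORC2 and RRM2 stand far to the right.

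Since many members were lower together in whole cells, their promoters were searched for E2F-like letters. RefSeq windows on GRCh38.p14, running from 250 bases before to 50 bases after the gene start, were available for 46 of the 52 genes. At least 1 of 3 E2F-like motifs, searched on both strands, occurred in 32 of the 46 windows (69.6%), against 14.8% of 15843 protein-coding promoters. By motif, TTCGCGC occurred in 23.9% of the members' windows against 3.17% of all. TTGGCGC occurred in 23.9% against 4.19%. TTCCCGC occurred in 41.3% against 8.60%. The members' windows were richer in G and C, with a median of 65.7% against 62.7%. Among members lower in senescent whole cells 19 of 26 windows held a match (73.1%), and among the other measured members 5 of 8 did (62.5%), both above the share over all promoters. CCAAT occurred in 58.7% of the members' windows against 36.4% of all promoters, and the cell-cycle element TTTGAA or TTCGAA in 4.35% against 13.5%. For CCAAT the split ran the other way from the E2F-like one. It occurred in 12 of 26 windows of members lower in senescent whole cells (46.2%) and 7 of 8 of the other measured members (87.5%). A match describes the letters of a window and shows neither binding nor a cause.

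The 6 windows below were chosen from complexes that the whole-cell results below turn on: MCM6 from the helicase ring, ORC5 as the highest ratio of the recognition complex, GINS1 as the lowest ratio of any member above 0 in both libraries, RFC3 and RFC1 as the lowest and highest measured clamp-loader subunits above 0, and PCNA. Each runs 5′ to 3′ on the gene's strand in lower case, and capitals mark E2F-like matches on either strand, with overlapping matches joined into 1 run of capitals.
MCM6 (chr2:135876394-135876693, minus strand): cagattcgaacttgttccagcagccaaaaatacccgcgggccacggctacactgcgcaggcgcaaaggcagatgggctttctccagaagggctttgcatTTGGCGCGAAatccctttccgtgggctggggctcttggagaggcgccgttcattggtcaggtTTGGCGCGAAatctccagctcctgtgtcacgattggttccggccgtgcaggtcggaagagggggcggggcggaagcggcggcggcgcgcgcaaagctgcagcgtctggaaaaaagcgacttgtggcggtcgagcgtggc
ORC5 (chr7:104207964-104208263, minus strand): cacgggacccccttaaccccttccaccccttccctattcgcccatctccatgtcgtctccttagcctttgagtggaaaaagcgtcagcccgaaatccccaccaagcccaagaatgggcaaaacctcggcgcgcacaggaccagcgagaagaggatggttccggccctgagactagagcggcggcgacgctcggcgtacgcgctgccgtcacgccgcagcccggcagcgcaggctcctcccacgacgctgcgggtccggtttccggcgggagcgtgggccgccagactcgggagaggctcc
GINS1 (chr20:25407423-25407722, plus strand): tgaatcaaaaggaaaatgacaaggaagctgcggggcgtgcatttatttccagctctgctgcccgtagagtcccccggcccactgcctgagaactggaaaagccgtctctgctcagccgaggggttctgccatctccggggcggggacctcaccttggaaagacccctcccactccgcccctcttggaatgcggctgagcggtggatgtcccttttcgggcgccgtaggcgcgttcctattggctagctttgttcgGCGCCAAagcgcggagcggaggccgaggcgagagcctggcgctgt
RFC3 (chr13:33817899-33818198, plus strand): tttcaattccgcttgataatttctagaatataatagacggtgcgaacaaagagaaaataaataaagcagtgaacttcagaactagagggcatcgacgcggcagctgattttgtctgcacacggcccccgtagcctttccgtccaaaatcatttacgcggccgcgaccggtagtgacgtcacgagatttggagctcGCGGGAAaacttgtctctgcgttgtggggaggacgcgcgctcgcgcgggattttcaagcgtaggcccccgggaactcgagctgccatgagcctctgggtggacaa
RFC1 (chr4:39366313-39366612, minus strand): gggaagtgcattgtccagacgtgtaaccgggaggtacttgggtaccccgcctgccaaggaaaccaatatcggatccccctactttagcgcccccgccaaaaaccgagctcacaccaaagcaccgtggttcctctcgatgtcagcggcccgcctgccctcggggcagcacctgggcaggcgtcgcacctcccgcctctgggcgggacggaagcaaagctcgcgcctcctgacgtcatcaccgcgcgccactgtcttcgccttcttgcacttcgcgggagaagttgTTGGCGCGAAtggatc
PCNA (chr20:5126573-5126872, minus strand): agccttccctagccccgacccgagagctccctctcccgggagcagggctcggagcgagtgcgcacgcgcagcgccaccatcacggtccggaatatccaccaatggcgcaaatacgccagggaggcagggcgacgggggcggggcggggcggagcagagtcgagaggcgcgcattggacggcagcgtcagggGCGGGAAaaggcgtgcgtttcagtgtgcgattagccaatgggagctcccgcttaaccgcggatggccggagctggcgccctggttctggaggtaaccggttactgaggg
The MCM6 window held 4 matches in 2 runs, since TTGGCGC on one strand overlaps TTCGCGC on the other, and the RFC1 window held 2 in 1 run after the start. GINS1, RFC3 and PCNA held 1 match each, and ORC5 held none. By family, matches occurred in 4 of 4 windows of MCM2 to MCM7 and 5 of 5 RFC windows, but in 2 of 6 ORC windows, those without one being ORC2, ORC4, ORC5 and ORC6. By role, they occurred in 3 of 5 windows for helicase activation and 2 of 4 for nucleotide supply. CDC45, GMNN, MCM10, POLD1, PRIM2, RNASEH2A and TK1 were lower in senescent whole cells and had no match.

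Within origin licensing, by all annotated transcripts, the loaders and the helicase were lower in senescent whole cells while the recognition complex was not. All 6 subunits of the MCM ring were lower, with a median log2 ratio of -2.89, and their summed level was 19.2 FPKM in senescent and 142 FPKM in young whole cells. None of the 4 measured subunits of the origin recognition complex was lower or higher, with a median log2 ratio of -0.08 (0.19 with libraries rescaled to an equal sum) and sums of 26.6 FPKM in senescent and 27.5 FPKM in young whole cells. On coding transcripts ORC6 was lower, at 0.687 FPKM in senescent and 5.05 FPKM in young whole cells. The difference between the families was not tested, since each rests on the same 2 libraries.

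MCM4 was the most abundant ring subunit, at 14.7 FPKM in senescent whole cells and 68.8 FPKM in young whole cells (log2 ratio -2.15). Most of that was a 366-nt nonsense-mediated decay transcript at 11.5 FPKM in senescent and 42.8 FPKM in young whole cells. Its coding transcripts alone were at 1.12 FPKM in senescent and 15.4 FPKM in young whole cells, so both kinds of transcript were lower. MCM5 was at 3.51 FPKM in senescent and 25.7 FPKM in young whole cells (log2 ratio -2.57). MCM6, carried wholly by a full-length 3736-nt coding transcript, was at 0.917 FPKM in senescent and 4.01 FPKM in young whole cells (log2 ratio -1.39). The remaining ring subunits were listed at 0 in senescent whole cells. In young whole cells MCM2 was at 8.75 FPKM, MCM3 at 8.24 FPKM and MCM7 at 26.3 FPKM. For MCM3, 5.51 FPKM of the young level lay in a transcript that has no value in senescent whole cells, and the other 2.74 FPKM in one at 0 there. MCM7 was carried by a single 2515-nt retained-intron transcript, so no coding level is given for it.

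The helpers of MCM loading were lower as well. CDC6, the loading ATPase, was at 2.25 FPKM in senescent and 5.52 FPKM in young whole cells, and its log2 ratio stood at the threshold. CDT1, which brings MCM to origins, was listed at 0 in senescent and at 3.19 FPKM in young whole cells. GMNN encodes geminin, the inhibitor of CDT1, and was at 3.51 FPKM in senescent and 13.4 FPKM in young whole cells (log2 ratio -1.67). Both the loader and its inhibitor were at the lower level in senescent cells.

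Among the recognition subunits, levels in the whole-cell libraries were close. ORC2 was at 4.99 FPKM in senescent and 5.02 FPKM in young whole cells (log2 ratio -0.01), all of it in 1 coding transcript. ORC3 was at 9.62 FPKM in senescent and 10.8 FPKM in young whole cells (log2 ratio -0.16), and ORC5 at 6.89 FPKM in senescent and 4.81 FPKM in young whole cells (log2 ratio 0.44). ORC6 differed by transcript type: its annotated sum was 4.83 FPKM in senescent and 6.10 FPKM in young whole cells (log2 ratio -0.28), but its coding transcript alone was at 0.687 and 5.05 FPKM in these libraries (log2 ratio -1.84). ORC1, the subunit known to vary through the cell cycle, stayed under 1 FPKM, at 0.241 FPKM in senescent and 0.768 FPKM in young whole cells, and ORC4 was listed at 0 in both.

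All 5 measured helicase-activation genes were lower, with a median log2 ratio of -2.80. On coding transcripts 4 of 5 were lower, with a median of -1.68. Their summed level was 2.09 FPKM in senescent and 42.0 FPKM in young whole cells. GINS1, a subunit of the GINS complex, was at 0.242 FPKM in senescent and 14.04 FPKM in young whole cells (log2 ratio -3.60), the lowest ratio of any member above 0 in both. In young cells 64.4% of GINS1 lay in a 396-nt processed transcript, and on coding transcripts alone it was at 0.242 FPKM in senescent and 1.04 FPKM in young whole cells (log2 ratio -0.72), inside the threshold. CDC45, which bridges MCM and GINS, was at 1.05 FPKM in senescent and 14.8 FPKM in young whole cells (log2 ratio -2.95), mostly in a 577-nt nonsense-mediated decay transcript. MCM10, which helps to switch the helicase on, was at 0.447 FPKM in senescent and 9.09 FPKM in young whole cells (log2 ratio -2.80). GINS3 was at 0.357 FPKM in senescent and 1.90 FPKM in young whole cells, GINS4 was listed at 0 in senescent and at 2.21 FPKM in young whole cells, and GINS2 was listed at 0 in both.

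Polymerase subunits were less uniform, with 3 of 5 measured lower. POLD1, the catalytic subunit of polymerase delta, was at 2.46 FPKM in senescent and 13.8 FPKM in young whole cells (log2 ratio -2.10). Its partner subunit POLD3 was at 13.8 FPKM in senescent and 18.5 FPKM in young whole cells (log2 ratio -0.40), so the catalytic and accessory subunits of 1 enzyme had unlike ratios. POLE2, a subunit of polymerase epsilon, was at 0.725 FPKM in senescent and 4.61 FPKM in young whole cells (log2 ratio -1.70). POLA1, the catalytic subunit of polymerase alpha, was at 15.5 FPKM in senescent and 26.1 FPKM in young whole cells (log2 ratio -0.71), of which 83.1% and 92.2% lay in a 580-nt processed transcript. On coding transcripts POLA1 was at 2.62 FPKM in senescent and 2.03 FPKM in young whole cells (log2 ratio 0.26), the reverse direction.

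PRIM2, the large primase subunit, had the highest level of any member in whole cells, at 84.2 FPKM in senescent and 216 FPKM in young cells (log2 ratio -1.35). All of it lay in a 410-nt processed transcript, with its coding transcripts at 0. PRIM2 also has a pseudogene copy, and the sources used here do not say how reads shared with it were counted, so its level is uncertain. The catalytic primase subunit PRIM1, whose locus is shared with NACA, and POLE, the catalytic subunit of polymerase epsilon, were listed at 0 in every library. For POLE, assembled transcripts in a locus of its own stood at 2.06 FPKM in senescent and 3.15 FPKM in young whole cells. POLD2, listed at 0 in both whole-cell libraries, had 9.95 FPKM in senescent and 33.3 FPKM in young whole cells by such assembled transcripts. POLA2, the second subunit of polymerase alpha, was likewise listed at 0 in both whole-cell libraries, with assembled transcripts at 2.04 FPKM in senescent and 3.98 FPKM in young whole cells.

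The clamp and its loader were lower in 4 of 5 measured members, and in 3 of 5 with libraries rescaled to an equal sum, PCNA being the 1 that lost its call. PCNA, the sliding clamp, was at 8.28 FPKM in senescent and 21.4 FPKM in young whole cells (log2 ratio -1.27), all of it in coding transcripts. RFC3 was at 1.32 FPKM in senescent and 10.6 FPKM in young whole cells (log2 ratio -2.32). RFC2 was at 1.01 FPKM in senescent and 5.39 FPKM in young whole cells (log2 ratio -1.67). Both are small subunits of the loader and were carried by single coding transcripts. RFC1, the large subunit, was at 3.54 FPKM in senescent and 7.89 FPKM in young whole cells, and its log2 ratio of -0.97 fell just inside the threshold. RFC5 was listed at 0 in senescent and at 10.2 FPKM in young whole cells, in a processed transcript, and RFC4 was listed at 0 in both.

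Single-strand binding and lagging-strand genes fell on both sides of the threshold, with RPA1 close to it. The binding subunits RPA1 and RPA2 stayed inside the threshold. RPA1 was at 16.2 FPKM in senescent and 31.2 FPKM in young whole cells (log2 ratio -0.91), and RPA2 at 3.88 FPKM in senescent and 4.93 FPKM in young whole cells (log2 ratio -0.28). RNASEH2A, the catalytic subunit of the RNase that removes RNA from DNA, was at 0.950 FPKM in senescent and 13.0 FPKM in young whole cells (log2 ratio -2.85), all in 1 coding transcript of 2753 nt. LIG1, the ligase that joins Okazaki fragments, was at 1.24 FPKM in senescent and 6.89 FPKM in young whole cells (log2 ratio -1.82). RPA3 was listed at 0 in both whole-cell libraries and FEN1, the flap nuclease, in all 4.

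Nucleotide supply held the member with the highest level among those listed at 0 in senescent whole cells. TYMS, thymidylate synthase, was listed at 0 in senescent and at 68.2 FPKM in young whole cells, of which 44.1 FPKM lay in coding transcripts. TK1, thymidine kinase, was listed at 0 in senescent and at 11.7 FPKM in young whole cells. The young level lay in 1 coding transcript, which has no value in senescent whole cells or in the young mitoplast. No assembled transcript of TYMS was listed in a locus of its own, and for TK1 such a transcript stood at 0.325 FPKM in senescent whole cells. TYMS overlaps ENOSF1 on the opposite strand, and since the strand setting is not given, reads of the overlap cannot be told apart.

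Only by all annotated transcripts did ribonucleotide reductase differ in direction from the other nucleotide genes. RRM1, its large subunit, was at 10.5 FPKM in senescent and 6.31 FPKM in young whole cells (log2 ratio 0.66), the highest ratio of any member above 0 in both. In senescent whole cells 7.97 FPKM of that lay in a 448-nt retained-intron transcript, which was at 0 in young whole cells. On coding transcripts RRM1 was at 2.56 FPKM in senescent and 6.31 FPKM in young whole cells (log2 ratio -1.04), so the direction turned with the transcripts counted. RRM2, the small subunit known to be made in S phase, was at 0.656 FPKM in senescent and listed at 0 in young whole cells, in a 573-nt retained-intron transcript with no coding level in any library. Being under 1 FPKM in both whole-cell libraries, RRM2 was not measured there.

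Fork and chromatin members were low in senescent whole cells. TIMELESS, a fork protection protein, was at 0.341 FPKM in senescent and 2.60 FPKM in young whole cells (log2 ratio -1.43), and CLSPN, the fork adaptor claspin, was listed at 0 in both. CHAF1A, the large subunit of the histone chaperone CAF-1, was at 2.12 FPKM in senescent and 6.90 FPKM in young whole cells (log2 ratio -1.34). Its partner CHAF1B was listed at 0 in senescent and at 5.37 FPKM in young whole cells. DNMT1, the maintenance methyltransferase, was at 5.06 FPKM in senescent and 13.8 FPKM in young whole cells (log2 ratio -1.28). The young level lay wholly in a nonsense-mediated decay transcript, and the coding transcript of DNMT1 was at 2.78 FPKM in senescent and listed at 0 in young whole cells.

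Counting coding transcripts alone left most directions in place. Of 36 members measured this way, 26 were lower and 1, DNMT1, was higher, with background shares of 22.8% lower and 16.1% higher among 9416 genes. Of the 27 above 0 in both, 18 were lower and 0 higher, against 17.9% and 10.4% of genes. Under both ways of counting 24 members were lower, and DNMT1, GINS1, MCM7, PRIM2 and RFC5 were lower only by all annotated transcripts. The coding sum over members was 95.0 FPKM in senescent and 332 FPKM in young whole cells, a 3.50-fold lower sum. Adding assembled transcripts of a gene's own locus kept 26 of the 29, dropped CDC6, DNMT1 and POLE2, and added CLSPN and POLD2. For DNMT1 this treated the libraries unlike: 5.28 FPKM was added in senescent whole cells, while 15.0 FPKM in young whole cells was left out because the locus there is shared with S1PR2.

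**Figure D3:**
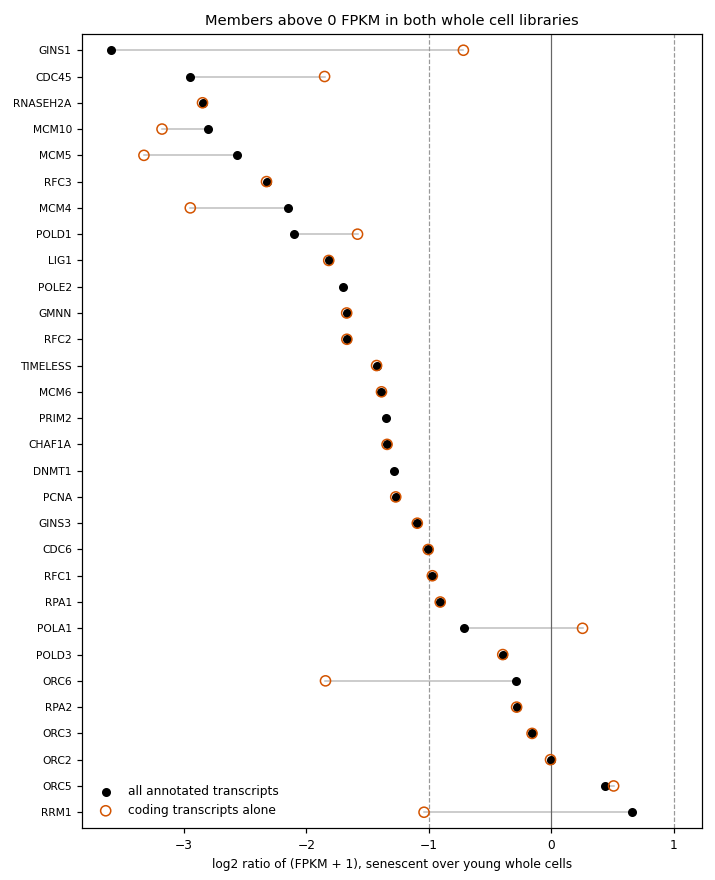
Log2 ratio of FPKM + 1, senescent over young whole cells (x axis), for the 30 members above 0 in both libraries, by all annotated transcripts (black) and, where coding transcripts were above 0 in both libraries, by those alone (open orange); dashed lines mark -1 and 1. GINS1 is lowest at -3.60, and ORC6 (-0.28 and -1.84) and RRM1 (0.66 and -1.04) differ in call between the 2 ways of counting.

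Transcript types shifted between libraries. Coding transcripts held 57.4% of the members' FPKM in the senescent mitoplast, 68.7% in the young mitoplast, 42.1% in senescent whole cells and 44.9% in young whole cells. Over all nuclear protein-coding genes the coding share was 40.6%, 65.6%, 64.4% and 64.0% in the same order. Processed transcripts, PRIM2 among them, held 43.4% of the senescent and 35.8% of the young whole-cell sum. PRIM2, whose level is uncertain, made up 84.2 of 97.8 FPKM of these in senescent and 216 of 265 FPKM in young whole cells. Nonsense-mediated decay transcripts held 8.74% of the senescent and 10.2% of the young whole-cell sum. Transcripts of 600 nt or more held 18.1% of the members' FPKM in the senescent mitoplast and 76.8% in the young mitoplast, against 42.6% of the senescent and 53.8% of the young whole-cell sum. Over all nuclear protein-coding genes the share in such transcripts was 30.8% in the senescent mitoplast and 44.4% in the young mitoplast. It was 46.1% in senescent and 43.0% in young whole cells.

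**Figure D4:**
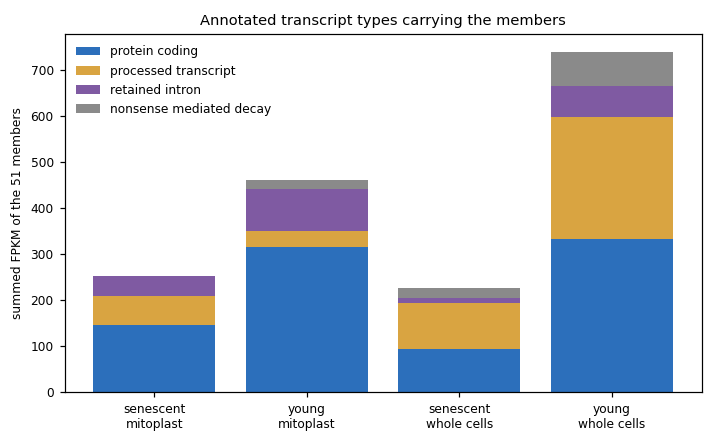
Summed FPKM of the 51 members (y axis) in each library, stacked by annotated transcript type. Coding transcripts (blue) add up to 145 FPKM in the senescent mitoplast, 316 in the young mitoplast, 95.0 in senescent whole cells and 332 in young whole cells.

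Other genes of the pathway, listed by name and all 58 matched, are given for comparison. Of 46 measured in whole cells, 20 were lower, 5 of them listed at 0 in senescent cells, and 4 were higher, 2 of them listed at 0 in young cells, with a median log2 ratio of -0.81. Over all 10544 measured nuclear protein-coding genes 22.8% were lower and 15.3% higher, with a median of -0.22. The lowest ratios above 0 in both were DUT, the enzyme that clears dUTP, at 4.79 FPKM in senescent and 79.5 FPKM in young whole cells (log2 ratio -3.80), of which 2.45 and 10.4 FPKM were coding, NASP, a histone chaperone, at 35.1 and 176 FPKM in these libraries (-2.30), and SSRP1, a subunit of the FACT chaperone, at 3.93 and 20.1 FPKM (-2.09). The highest were RRM2B, the reductase subunit induced by p53, at 5.63 FPKM in senescent and 1.09 FPKM in young whole cells (log2 ratio 1.66), CTPS1, a CTP synthase, at 8.31 and 2.44 FPKM in these libraries (1.44), and ATAD5, which unloads PCNA, at 2.50 and 1.42 FPKM (0.53). All of RRM2B in whole cells lay in coding transcripts, unlike RRM2.

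In mitoplasts the whole background was shifted toward lower values in the senescent library, and members were read against it. Of 40 measured members, 29 were lower and 8 higher in the senescent mitoplast than in the young mitoplast, with a median log2 ratio of -2.47. The share of all 10916 measured genes that were lower was 56.5% and that higher was 20.9%, with a median of -1.25. Of the 29 lower members, 22 were listed at 0 in the senescent mitoplast, where 31 of the 51 members stood at 0, against 13 in the young mitoplast. Among the 15 members above 0 in both mitoplast libraries, 7 were lower and 5 higher, with a median of -0.11, against 40.7% lower and 20.5% higher of 6332 genes. With libraries rescaled to an equal sum, 4159 genes were lower and 3868 higher, against 6170 and 2286 as deposited, and the median of all genes moved to 0.04. Under that rescaling 23 members were lower and 11 higher of 37 measured, with a median of -2.00. On coding transcripts 29 of 36 measured members were lower and 3 higher, against 65.0% and 16.1% of genes, and of the 10 above 0 in both 4 were lower and 2 higher, against 45.4% and 15.2%.

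Several members were listed at 0 in both senescent libraries and above 0 in both young ones. CDT1, MCM2, MCM7, GINS4, TYMS and CHAF1B made up this group of 6, out of 32 members above 0 in both young libraries (18.8%), against 488 of 9853 genes overall (4.95%). By assembled transcripts of its own locus, MCM7 stood at 3.24 FPKM in the senescent mitoplast. Such transcripts of GINS4 stood at 0.209 FPKM in the senescent mitoplast and 0.537 FPKM in senescent whole cells. Those of CDT1 stood at 0.438 FPKM in senescent and 1.79 FPKM in young whole cells, and MCM2, TYMS and CHAF1B had none. Assembled transcripts of a locus that CHAF1B shares with MORC3 stood at 8.51 FPKM in senescent and 0 in young whole cells. In mitoplasts they stood at 4.68 FPKM in the senescent and 3.65 FPKM in the young library. Whether they cover CHAF1B is not known. TYMS was at 62.6 FPKM in the young mitoplast, a log2 ratio of -0.12 to the 68.2 FPKM of young whole cells. MCM2 was at 13.7 FPKM and MCM7 at 18.6 FPKM in the young mitoplast, and CDT1 at 5.54 FPKM. Of the 29 members lower in senescent whole cells, 17 were also lower in the senescent mitoplast (58.6%), near the share over all genes, 1309 of 2406 (54.4%). Among the 17 were PCNA, RFC2, RFC3, CDC45, GMNN and RNASEH2A, each listed at 0 in the senescent mitoplast.

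The young mitoplast also held replication transcripts. PCNA was at 25.4 FPKM in the young mitoplast and 21.4 FPKM in young whole cells (log2 ratio 0.24). RNASEH2A was at 23.3 FPKM in the young mitoplast and 13.0 FPKM in young whole cells (log2 ratio 0.79), and POLD3 at 22.7 FPKM in the young mitoplast and 18.5 FPKM in young whole cells (log2 ratio 0.28); the signs of PCNA and POLD3 turned with libraries rescaled to an equal sum. These are nuclear transcripts in a fraction treated with RNase A, and what kept them there was not tested. Of 45 measured members, 13 were lower and 9 higher in the young mitoplast, with a median log2 ratio of -0.12, against 35.9% lower and 21.7% higher and a median of -0.33 over all 11388 measured genes. Of the 32 above 0 in both, 6 were lower and 3 higher, against 31.3% and 14.8% of 8951 genes. On coding transcripts 9 of 41 measured members were lower and 6 higher, against 36.8% and 19.4% of genes, and of the 30 above 0 in both 4 were lower and 0 higher, against 29.1% and 11.6%. Coding transcripts of the members summed to 316 FPKM in the young mitoplast and 332 FPKM in young whole cells. With an equal sum 5306 genes were lower and 1598 higher, with the median of ratios 3152 and 3183, and 8 of the 32 members above 0 in both changed sign under each.

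A few members differed between the young fractions. RFC1 was at 38.8 FPKM in the young mitoplast and 7.89 FPKM in young whole cells (log2 ratio 2.16), but its coding transcripts were at 1.33 and 7.89 FPKM in these libraries, a log2 ratio of -1.93. POLA1 was at 1.76 FPKM in the young mitoplast and 26.1 FPKM in young whole cells (log2 ratio -3.30), while its coding level was 1.76 and 2.03 FPKM. Both differences lay in non-coding transcripts. ORC4, GINS2, RFC4, RPA3 and CLSPN were above 0 in the young mitoplast alone, and RPA3 was highest of these at 14.5 FPKM, in a 434-nt coding transcript. RFC5 and TK1 were above 0 in young whole cells alone; the transcript that carried TK1 has no value in the young mitoplast, and TK1 had assembled transcripts at 14.4 FPKM in the young mitoplast.

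In the senescent mitoplast, transcripts under 600 nt carried most of the members' FPKM. POLD2, a small subunit of polymerase delta, was at 91.8 FPKM in the senescent mitoplast and listed at 0 in the other libraries, with 89.2% of it in a 249-nt coding transcript. By assembled transcripts of its own locus it stood at 0 in the senescent mitoplast and 30.1 FPKM in the young one. ORC2 was at 22.6 FPKM in the senescent mitoplast and 1.60 FPKM in the young mitoplast (log2 ratio 3.19), in a 568-nt processed transcript in place of the 4312-nt coding transcript of the other libraries. MCM5 was at 20.5 FPKM in the senescent mitoplast and 22.2 FPKM in the young mitoplast (log2 ratio -0.11, with the sign turned under both rescalings), but in a 468-nt processed transcript with its coding transcripts at 0. RRM2 was at 13.8 FPKM in the senescent mitoplast and listed at 0 in the young mitoplast, in a retained-intron transcript. Without POLD2 and PRIM2 the members' coding sum was 63.5 FPKM in the senescent mitoplast and 316 FPKM in the young mitoplast, against 145 and 316 FPKM with them.

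Of the 29 members lower in senescent whole cells, 4 were higher in the senescent mitoplast: DNMT1, LIG1, MCM10 and TIMELESS. Among all 10916 genes measured in mitoplasts, whatever their whole-cell ratio, 20.9% were higher in the senescent library. The share among genes lower in whole cells was not computed. MCM10 was at 24.6 FPKM in the senescent mitoplast and 11.0 FPKM in the young mitoplast (log2 ratio 1.09), with 88.7% of the senescent level in a 469-nt coding transcript. LIG1 was at 15.4 FPKM in the senescent mitoplast and 4.15 FPKM in the young mitoplast (log2 ratio 1.67), and the senescent level lay wholly in a 575-nt coding transcript. TIMELESS was at 11.3 FPKM in the senescent mitoplast and 2.87 FPKM in the young mitoplast (log2 ratio 1.67), and here the senescent level was a 581-nt retained-intron transcript while the young level was a 4376-nt coding one. In each of these 3 the leading transcript of the senescent mitoplast was under 600 nt. DNMT1 was at 2.10 FPKM in the senescent mitoplast and listed at 0 in the young mitoplast.

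POLA2 was at 0.0806 FPKM in the senescent mitoplast and 12.9 FPKM in the young mitoplast (log2 ratio -3.69), mostly in a 692-nt retained-intron transcript. MCM6, in its full-length coding transcript, was at 0.0297 FPKM in the senescent mitoplast and 6.79 FPKM in the young mitoplast (log2 ratio -2.92). Further members that were lower in the senescent mitoplast with a level above 0 included RPA1, at 1.96 FPKM in the senescent mitoplast and 27.4 FPKM in the young mitoplast (log2 ratio -3.26). RRM1 was at 2.12 FPKM in the senescent mitoplast and 16.0 FPKM in the young mitoplast (log2 ratio -2.44). MCM4 was at 6.13 FPKM in the senescent mitoplast and 28.4 FPKM in the young mitoplast (log2 ratio -2.04), and CHAF1A at 1.59 FPKM in the senescent mitoplast and 8.00 FPKM in the young mitoplast (log2 ratio -1.80). Rescaled to an equal sum, MCM4 (-0.64) and CHAF1A (-0.63) were inside the threshold. Of these 6, MCM4, MCM6 and CHAF1A were also lower in senescent whole cells, while RPA1 and RRM1 were inside the threshold there and POLA2 was listed at 0.

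Against senescent whole cells, the senescent mitoplast had 14 members lower and 9 higher of 27 measured, with a median log2 ratio of -1.01. Over all 10725 measured genes 60.8% were lower and 18.9% higher, with a median of -1.45. Of the 14 lower members 10 were listed at 0 in the mitoplast, and among the 16 above 0 in both 4 were lower and 8 higher, with a median of 0.81, against 49.1% lower and 17.0% higher of 6403 genes. On coding transcripts 13 of 22 measured members were lower and 5 higher, against 70.3% and 13.8% of genes, and of the 10 above 0 in both 2 were lower and 4 higher, against 54.3% and 12.7%. By the median of ratios 4992 genes were lower and 3096 higher, against 6523 and 2028 as deposited, and 10 members were lower and 10 higher of 25 measured, with a median of -0.07. PRIM2 was at 0.296 FPKM in the senescent mitoplast and 84.2 FPKM in senescent whole cells (log2 ratio -6.04), and MCM10 at 24.6 FPKM in the senescent mitoplast and 0.447 FPKM in senescent whole cells (log2 ratio 4.14). LIG1 (log2 ratio 2.87) and TIMELESS (3.20) were also higher in the mitoplast, by the short transcripts named above.

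Summed by role over coding transcripts, every role had a lower sum in senescent than in young whole cells. Clamp and loader genes summed to 0 FPKM in the senescent mitoplast, 46.3 FPKM in the young mitoplast, 14.1 FPKM in senescent whole cells and 45.3 FPKM in young whole cells. Nucleotide supply genes summed to 0.181 FPKM in the senescent mitoplast, 63.5 FPKM in the young mitoplast, 2.56 FPKM in senescent whole cells and 62.2 FPKM in young whole cells. TYMS supplied 51.6 FPKM of this in the young mitoplast and 44.1 FPKM in young whole cells. Licensing genes summed to 8.97 FPKM in the senescent mitoplast, 72.3 FPKM in the young mitoplast, 31.1 FPKM in senescent whole cells and 104 FPKM in young whole cells. Polymerase and primase genes had the higher sum in the senescent mitoplast, at 91.7 FPKM against 35.4 FPKM in the young mitoplast, with 81.9 FPKM of the senescent sum in POLD2. Helicase-activation genes did too, at 24.6 FPKM in the senescent mitoplast and 17.0 FPKM in the young mitoplast. MCM10 alone made up the senescent sum, and CDC45 and GINS1 to GINS4 were listed at 0 there. In whole cells helicase-activation genes summed to 0.755 FPKM in the senescent and 17.0 FPKM in the young library. Fork protection genes summed to 0.341 FPKM in senescent and 2.60 FPKM in young whole cells.

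**Figure D5:**
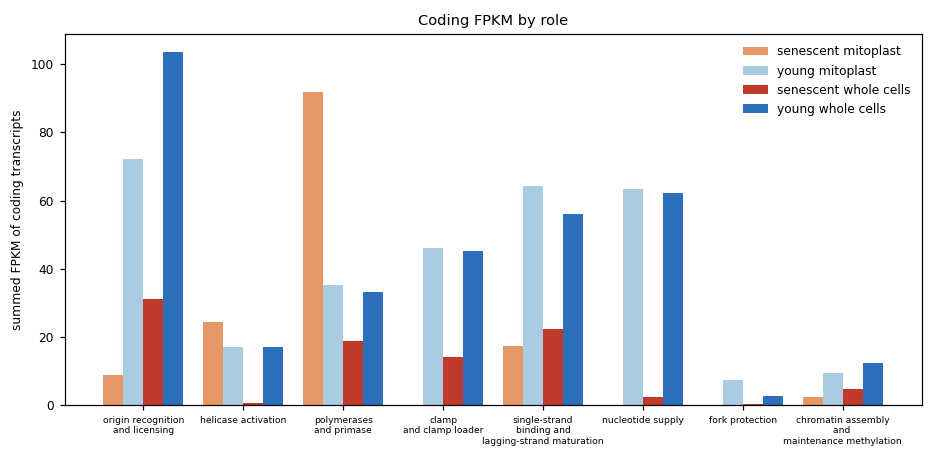
Summed FPKM of coding transcripts (y axis) by role, 1 bar per library, with no error since each bar is 1 library. Senescent bars are below young bars of the same fraction in every role except, in mitoplasts, helicase activation (24.6 against 17.0 FPKM) and polymerases and primase (91.7 against 35.4 FPKM). In the senescent mitoplast MCM10 alone makes up the helicase-activation bar, and POLD2 holds 81.9 FPKM of the polymerase bar.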

How the data were processed

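Whole-cell and mitoplast RNA of young and senescent WI-38 cells was sequenced, with 1 library in each of 4 groups. The deposited values are FPKM per transcript, per the file headers, with no counts, lengths or intervals, so depth and counting error are unknown. TopHat2 2.0.14, Cufflinks 2.2.1, Cuffdiff and hg19 stand, without role, in the submitters' processing notes. The annotation release, normalization options and strand setting are not given in any source used here, so overlapping antisense genes cannot be told apart. Ensembl transcripts were named and typed with GENCODE release 29, for names, types and lengths only; 93.0% received a symbol, and those without held 10.1% to 16.2% of annotated FPKM.

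Gene values were sums of annotated transcripts, computed with Python 3.11.15, pandas 2.3.3 and numpy 2.4.6; figures used matplotlib 3.10.9. Ratios used a pseudocount of 1 FPKM, a filter of 1 FPKM in at least 1 of 2 libraries and a threshold of 1 on the log2 scale, tested on simulated data. Assembled transcripts were added only as an alternative, from loci holding 1 gene. Further alternatives were a pseudocount of 0.1, filters of 5 FPKM and none, coding transcripts alone, transcripts of 600 nt or more, 2 rescalings, and zeros left out. The members and gene lists were chosen with earlier results of these data known. Every member may be named; of the other pathway genes, the rule names the 3 highest and 3 lowest whole-cell ratios above 0 in both libraries. Promoter windows were RefSeq's on GRCh38.p14, used for sequence only.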

Additional observations from a re-analysis of the deposited data

Results flagged for a closer look

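By all annotated transcripts, MCM10, LIG1 and TIMELESS differed in opposite directions between senescent and young libraries in the 2 fractions. MCM10 had a log2 ratio, senescent over young, of 1.09 in mitoplasts and -2.80 in whole cells. LIG1 had 1.67 in mitoplasts and -1.82 in whole cells, and TIMELESS 1.67 in mitoplasts and -1.43 in whole cells. In the senescent mitoplast each was led by a transcript under 600 nt. For LIG1 this was a 575-nt coding transcript that held all of its level. For MCM10 a 469-nt coding transcript led in both mitoplast libraries. On coding transcripts TIMELESS was at 0 in the senescent and 2.87 FPKM in the young mitoplast, the direction it had in whole cells. With 1 library per group the difference between fractions was not tested.

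Assembled transcripts in loci shared by several genes, which no gene value above includes, held signal in senescent libraries at the loci of POLD1 and CHAF1B. The locus that POLD1 shares with SPIB and 1 further gene held 1.25 FPKM in senescent whole cells and 0 in young whole cells. The locus that CHAF1B shares with MORC3 and 1 further gene held 8.51 FPKM in senescent whole cells and 0 in young whole cells, and 4.68 FPKM in the senescent mitoplast and 3.65 FPKM in the young mitoplast. Which gene these transcripts cover is not known.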

How the results depend on the processing

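In whole cells the number of members lower in senescence ranged from 20 to 30 over 9 alternatives, against 29. The 20 were of 30 measured with zeros left out, where 18.9% of all genes were lower. The 30 were of 39 at a pseudocount of 0.1, where 26.7% of all genes were lower. The median stayed negative, from -2.31 to -1.35. On coding transcripts 1 of 36 members was higher, against 16.1% of genes. In the mitoplast comparison of senescence the median ranged from -5.27 to -0.11. With zeros left out 7 of 15 members were lower and 5 higher, against 40.7% and 20.5% of genes. On coding transcripts 3 of 36 were higher, against 16.1% of genes. On transcripts of 600 nt or more 2 of 35 were higher, against 16.3%. For the young mitoplast against whole cells, leaving out zeros gave 6 lower and 3 higher of 32, against 31.3% and 14.8% of genes. Under the median of ratios the members' median turned to 0.29, and that of all genes to 0.13. For the senescent mitoplast against whole cells, 7 of 19 were lower at a filter of 5 FPKM, against 59.4% of genes. With zeros left out 4 of 16 were lower, against 49.1%. On coding transcripts 5 of 22 were higher, against 13.8% of genes. On transcripts of 600 nt or more 3 of 21 were higher, also against 13.8%. The members' median turned to 0.33 at 5 FPKM and 0.81 with zeros left out, where that of all genes was -1.63 and -0.97. Filters and left-out zeros test fewer genes by construction; for the other changes the cause was not tested. No paired analysis was possible because each group has 1 library and the labels give no replicate numbers; for the same reason no library could be left out. Depth is unknown, so whether a 0 is below detection cannot be told.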

Other observations

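Some members share a locus with another gene, and their assembled transcripts were given to neither. FEN1, listed at 0 in all 4 libraries by annotated transcripts, shares a locus with FADS2 in which assembled transcripts stood at 32.4 FPKM in senescent whole cells and 61.9 FPKM in young whole cells, and at 0 in both mitoplast libraries. DNMT1 shares one with S1PR2, at 0 FPKM in the senescent mitoplast and 12.0 FPKM in the young mitoplast, and at 15.0 FPKM in young whole cells. The assembled transcripts of DNMT1 with 5.28 FPKM in senescent whole cells lay in a locus of its own.

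RRM2B, the reductase subunit outside the members listed by name, stood at 213 FPKM in the senescent mitoplast and 7.20 FPKM in the young mitoplast, with 203 and 7.20 FPKM of it in coding transcripts.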
